A study of Mus musculus with 18 samples.

Results

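Chromatin accessibility was compared between 9 mouse peripheral T-cell lymphomas and 3 libraries of normal splenic T cells, which together make up 12 of the 18 libraries of the series. The 9 lymphoma libraries are those titled mPTCL, and the 3 normal libraries are those titled Total T cells from spleen. The names mPTCL 1 to mPTCL 9 used below number the lymphomas in the order of the series and are not in their titles. The lymphomas were p53KO cells on a C57BL/6 background, sorted from the liver of syngeneic CD3KO C57BL/6 recipients in which p53KO T cells had been transferred and had given rise to tumours. The labels name no marker for that sort, and they do not give the part of Trp53 that is deleted. The normal cells were CD3+ Thy1+ cells sorted from the spleen of wild-type C57BL/6 mice. Genotype, organ, sorting gate and malignancy therefore differ together between the groups, and their parts in any difference cannot be told apart. The labels do not say that the 3 T-cell libraries came from separate mice, so the spread between them may be technical. The p-values of peaks and gene sums rest on a spread estimated over all 18 libraries in 4 groups. They need not measure variation between normal mice.

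The assay was ATAC-seq, in which the Tn5 transposase inserts sequencing adapters into DNA that is not covered by nucleosomes, so that reads collect at promoters and enhancers that are open in a cell. A count in a peak therefore depends both on how open the site is and on how many copies of it the cells carry, and these cannot be told apart here. In a sorted bulk library, fewer cells of a type and less signal per cell cannot be told apart either. Mature T cells of the spleen are mostly resting cells that recirculate through lymphoid organs and keep their antigen receptor, co-receptor and interleukin 7 receptor loci open. Cytotoxic T cells, NKT cells and NK cells share a set of loci for granule proteins, chemokines and inhibitory or activating receptors. The transcription factor T-bet, encoded by Tbx21, is a main regulator of that set. Peripheral T-cell lymphomas are cancers of mature T cells, and p53 restrains the growth of damaged cells by switching on genes for growth arrest and cell death.

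The counts cover peaks of 500 bases on mm10 coordinates, 61220 of which were tested, and 20325 gene sums made by adding the peaks that the deposited table gives to each gene symbol. All tested peaks lay on the 19 autosomes, so a gene of a sex chromosome has no tested peak here, however open it is. Total counts in peaks ran from 670358 to 4844441 in the lymphomas and from 979441 to 2358023 in the T cells. The share of peaks at 0 ran from 0.0343% to 9.04% in lymphoma libraries and from 2.75% to 11.4% in T-cell libraries. Levels are given as CPM, the count scaled to the size of its library. Across peaks, the correlation of log2 CPM had a median of 0.661 over the 36 pairs of lymphomas, 0.819 over the 3 pairs of T-cell libraries and 0.547 over the 27 mixed pairs. The median SD of a peak's log2 CPM was 0.66 among lymphomas and 0.50 among T cells. The lymphomas were thus more unlike each other than the normal libraries were. All 11 T-cell defining genes searched for had peaks with counts in all 12 libraries, and 9 of them did not differ past the threshold, among them Cd3e, Cd3d and Cd3g of the CD3 complex, the constant-region genes Trac, Trbc1 and Trbc2, and Thy1. Cd5 (log2 fold change -1.94) and Cd247 (-1.08) were lower. The share past the threshold was 18.2%, against 30.9% of all gene sums. The summed level of the 11 genes ran from 548 to 870 CPM in the lymphomas and from 801 to 935 CPM in T cells. The Trp53 gene sum was 67.9, 49.2 and 65.1 CPM in T cells and ran from 54.6 over a median of 78.4 to 108 CPM in the p53KO lymphomas (log2 fold change 0.39 ± 0.25, SE, adjusted p = 0.236). Because the deleted part is not known, these peaks check nothing about the genotype.

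Differences between lymphomas and T cells were spread over all autosomes and went both ways. Of 61220 peaks tested, 5061 were higher in the lymphomas (8.27%) and 6999 were lower (11.4%), so that 12060 peaks (19.7%) passed an adjusted p of 0.05 in edgeR's quasi-likelihood test. Of the 20325 gene sums, 3297 were higher (16.2%) and 2986 were lower (14.7%), or 6283 in all (30.9%). In 10503 peaks (17.2%) and 4630 gene sums (22.8%), the 9 lymphomas and the 3 T-cell libraries did not overlap in log2 CPM.

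The balance between higher and lower calls depended on the scaling. With edgeR's TMM factors, 42% of the called peaks were higher in the lymphomas. That share was 63.5% with RLE factors, 57.7% with library totals and 69.8% with DESeq2. For gene sums the same share was 52.5% with TMM, 57.8% with RLE, 54.3% with library totals and 60.8% with DESeq2. The median log2 fold change over all peaks was 0.26 with TMM, 0.51 with RLE, 0.45 with library totals, 0.52 with DESeq2 and 0.02 after cyclic loess. The fold changes given here are on the TMM scale, where the median gene sum stood at 0.12. The T-cell side rests on 3 libraries, and leaving out T 1, T 2 or T 3 reduced the called peaks to 6048, 6265 and 7382, and the called gene sums to 3817, 3752 and 4229. Leaving out any of the 9 lymphomas gave between 10835 and 12670 called peaks.

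Lower calls were more frequent at strong peaks and at promoters. The lymphomas had a smaller part of their counts at promoters, with 54.4% ± 3.22 (SD, n = 9) against 62.9% ± 0.53 (SD, n = 3) in T cells. The lymphomas ran from 48.7% to 59.1% and the T cells from 62.5% to 63.5%, with no overlap. The share of counts was higher in introns (20.8% against 17.4%), between genes (10.6% against 8.50%), in the flanks of genes (6.66% against 5.25%), in exons (4.63% against 3.63%) and in 3' UTRs (2.06% against 1.52%). Each of these 6 classes had p = 0.00909 in an exact two-sided permutation test, the smallest that 9 libraries against 3 allow, and an adjusted p of 0.0106 over 7 classes. The share in 5' UTRs was 0.854% against 0.799% (exact p = 0.227). In the smaller of the deposited tables, which holds 27727 peaks, none of these 6 classes kept an adjusted p under 0.05, and the intronic difference was -0.189 percentage points.

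Among single peaks, 4.85% of 19979 promoter peaks were higher and 18% lower, whereas 9.82% of 19423 intronic peaks were higher and 9.6% lower. Among 9606 intergenic peaks, 11.3% were higher and 8.44% lower. When all peaks were placed in 10 classes by their mean level, the strongest class had 1.99% higher and 35.6% lower calls, and 89.2% of its peaks were promoters. The class below it had 6.73% higher and 15.5% lower calls. In the weakest class, 11.1% of the peaks were promoters, the median log2 fold change was 1.37, and 9.47% were higher and 10.1% lower. The median log2 fold change of the strongest class was -0.47. Level and class were thus bound together, and their separate parts in the calls were not tested. Gene sums, placed in 10 classes of level, also showed a slope, though the strongest class departed from it. Lower calls rose from 5.71% in class 2 to 22.9% in class 8, and were 17.5% in the strongest class. Higher calls fell from 21.1% in class 3 to 12.8% in class 8, and were 18.9% in the strongest. The weakest class had 16.1% higher and 7.97% lower calls. Its median log2 fold change was 1.12, against -0.12 in class 8 and 0.04 in the strongest.

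**Figure D1:**
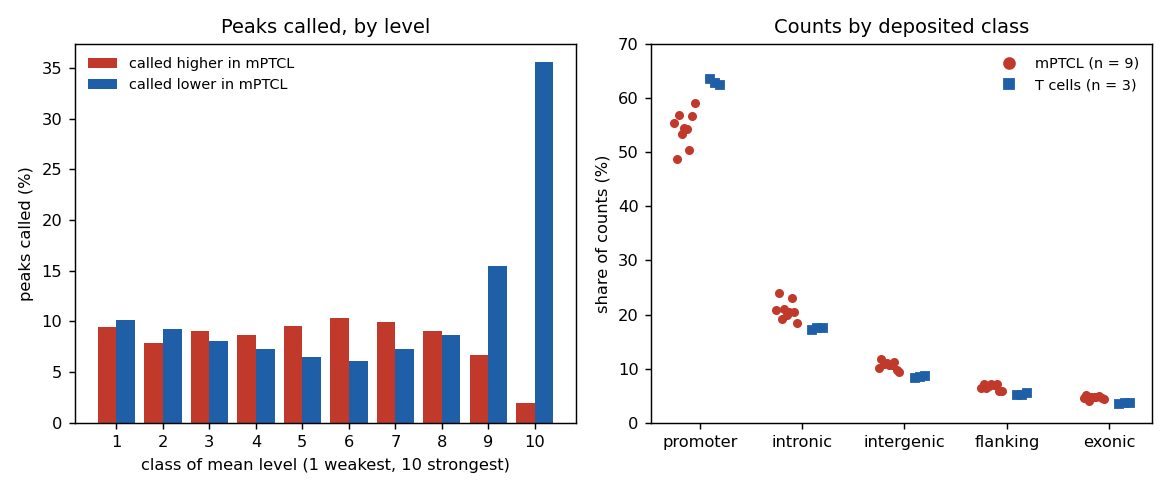
Left, percent of peaks called higher or lower in the lymphomas in each of 10 classes of mean level, where 35.6% of the strongest class is lower. Right, percent of each library's counts in 5 deposited peak classes, where the 9 lymphomas (48.7% to 59.1%) lie under the 3 T-cell libraries (62.5% to 63.5%) at promoters.

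Promoters of some loci with called differences are shown here as RefSeq gives them on mm10, from 250 bases before to 50 bases after the annotated start, 5' to 3' on the strand of the gene. They were chosen after their values were seen and not by the size of the difference alone. Tle1, Mgmt, Btla and Cd5 stand for promoters that were lower in the lymphomas, and Ifng, Gzmb and the 2 start sites of Cdkn2a for promoters that were higher. Capitals mark every match, on either strand, to the motif letters listed further on, and a sequence with no capitals has no match to those letters.

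Tle1 (chr4:72200844-72201143, minus strand): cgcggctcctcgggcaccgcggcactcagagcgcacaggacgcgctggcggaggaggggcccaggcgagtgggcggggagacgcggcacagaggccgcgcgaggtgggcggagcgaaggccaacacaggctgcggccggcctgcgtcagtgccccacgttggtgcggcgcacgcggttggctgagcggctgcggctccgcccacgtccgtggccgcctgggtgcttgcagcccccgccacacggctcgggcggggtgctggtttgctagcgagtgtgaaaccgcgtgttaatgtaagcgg

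Mgmt (chr7:136894336-136894635, plus strand): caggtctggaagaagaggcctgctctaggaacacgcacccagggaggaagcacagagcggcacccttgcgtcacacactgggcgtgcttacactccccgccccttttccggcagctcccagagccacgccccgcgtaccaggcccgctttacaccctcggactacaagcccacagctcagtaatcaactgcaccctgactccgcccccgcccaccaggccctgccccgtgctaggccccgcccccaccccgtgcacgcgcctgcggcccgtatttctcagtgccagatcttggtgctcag

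Btla (chr16:45224087-45224386, plus strand): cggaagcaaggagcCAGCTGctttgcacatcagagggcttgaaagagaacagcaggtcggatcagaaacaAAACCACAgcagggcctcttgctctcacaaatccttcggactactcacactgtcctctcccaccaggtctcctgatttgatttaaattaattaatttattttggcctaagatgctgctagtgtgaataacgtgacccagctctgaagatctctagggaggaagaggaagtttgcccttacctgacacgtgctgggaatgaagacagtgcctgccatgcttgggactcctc

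Cd5 (chr19:10738925-10739224, minus strand): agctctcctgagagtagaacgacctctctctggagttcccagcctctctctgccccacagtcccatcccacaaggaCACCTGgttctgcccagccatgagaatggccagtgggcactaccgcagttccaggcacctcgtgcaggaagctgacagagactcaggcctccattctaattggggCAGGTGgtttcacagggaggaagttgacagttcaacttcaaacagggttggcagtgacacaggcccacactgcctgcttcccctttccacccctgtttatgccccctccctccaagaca

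Ifng (chr10:118440796-118441095, plus strand): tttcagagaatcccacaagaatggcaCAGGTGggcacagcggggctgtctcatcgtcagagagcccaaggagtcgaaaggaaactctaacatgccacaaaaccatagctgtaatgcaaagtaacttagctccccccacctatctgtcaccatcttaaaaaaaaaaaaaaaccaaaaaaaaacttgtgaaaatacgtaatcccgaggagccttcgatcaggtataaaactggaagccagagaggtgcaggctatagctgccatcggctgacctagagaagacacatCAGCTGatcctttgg

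Gzmb (chr14:56262285-56262584, minus strand): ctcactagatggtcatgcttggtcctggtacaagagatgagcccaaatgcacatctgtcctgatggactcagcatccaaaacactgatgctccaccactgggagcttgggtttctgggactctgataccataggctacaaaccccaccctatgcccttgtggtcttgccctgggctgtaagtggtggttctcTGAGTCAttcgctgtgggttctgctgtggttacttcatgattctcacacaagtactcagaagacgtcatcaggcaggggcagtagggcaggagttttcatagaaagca

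Cdkn2a, downstream start (chr4:89282143-89282442, minus strand): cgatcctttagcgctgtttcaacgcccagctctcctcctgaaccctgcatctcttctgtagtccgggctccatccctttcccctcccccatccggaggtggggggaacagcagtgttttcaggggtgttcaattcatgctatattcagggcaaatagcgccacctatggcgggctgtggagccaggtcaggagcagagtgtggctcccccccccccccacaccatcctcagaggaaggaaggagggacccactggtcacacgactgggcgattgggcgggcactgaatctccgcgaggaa

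Cdkn2a, upstream start (chr4:89294570-89294869, minus strand): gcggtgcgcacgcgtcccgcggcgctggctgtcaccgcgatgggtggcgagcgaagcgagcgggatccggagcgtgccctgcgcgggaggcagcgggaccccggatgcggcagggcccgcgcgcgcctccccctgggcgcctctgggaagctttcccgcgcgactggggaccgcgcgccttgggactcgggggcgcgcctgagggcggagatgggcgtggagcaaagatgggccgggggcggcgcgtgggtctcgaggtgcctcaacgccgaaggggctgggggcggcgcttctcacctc

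The Tle1 and upstream Cdkn2a windows are rich in CpG, with 40 and 45 CpG dinucleotides and 73.7% and 77% G or C, and their peaks differed between the groups in opposite directions. Gzmb, Cd5, Btla and Ifng have between 2 and 7 CpG in their windows. The Btla window holds the letters CAGCTG and, on the other strand, the RUNX letters. The Cd5 window holds CAGGTG on both strands. Gzmb has the AP-1 letters 58 bases before the start.

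The 24 peaks named here, and the 20 gene sums with the largest differences, were chosen among those called under TMM both over all chromosomes and within their own, with no overlap between the groups, so that neither property is a result for them. Among these peaks the largest loss lay at the promoter of Tle1, which encodes a co-repressor of the Groucho family that works with TCF, RUNX and other factors. This peak (chr4:72200768-72201268) also carries the symbol C630043F03Rik. It held 214, 253 and 173 CPM in the 3 T-cell libraries, and from 0 over a median of 3.18 to 7.47 CPM in the lymphomas. Every lymphoma lay far below every T-cell library, with a log2 fold change of -6.16 ± 0.28 (adjusted p = 8.05e-18). The median was 28.0 CPM in NKT cells and 133 CPM in NK cells of the same series. All 3 peaks of Tle1 were lower, and its gene sum was 215, 267 and 168 CPM in T cells against 0, a median of 6.09 and at most 24.1 CPM in the lymphomas (-4.87 ± 0.33).

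Mgmt encodes the enzyme that removes alkyl groups from guanine in DNA. Its promoter peak (chr7:136894342-136894842) held 54.3, 36.3 and 57.5 CPM in T cells and 0, 2.45 and 4.18 CPM as the lowest, median and highest lymphoma. In 2 lymphomas there was no count (log2 fold change -4.75 ± 0.47, adjusted p = 2.35e-08). NKT cells had a median of 46.2 CPM and NK cells of 19 CPM at this peak.

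A peak in the 5' UTR of Cyp2r1, a vitamin D 25-hydroxylase (chr7:114562248-114562748), fell by 4.58 ± 0.37 on the log2 scale, from 53.3, 50.2 and 43.9 CPM in T cells to 0, 1.87 and 3.49 CPM as the lowest, median and highest lymphoma. An intronic peak of Trmt11, a tRNA methyltransferase subunit (chr10:30538261-30538761), held 70.3, 51.9 and 46.7 CPM in T cells and 1.06, 1.87 and 8.36 CPM in the same order of lymphomas (-4.62 ± 0.46). The promoter peak of Pcbp3, which encodes an RNA-binding protein (chr10:76961923-76962423), held 142, 136 and 150 CPM in T cells. Of the lymphomas, mPTCL 8 stood apart there with 58.5 CPM, against a median of 3.83 CPM (-4.14 ± 0.47). Intronic peaks of Eipr1, Gm13986 and Rassf3, an exonic peak of Rab3ip, a flanking peak of Bambi-ps1 and a promoter peak of Gm15200 had log2 fold changes between -4.61 and -4.08. These 12 peaks kept their call in every setting in which they could be tested, which largely follows from how they were chosen.

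An intronic peak of Tox was among them. Tox encodes an HMG-box factor needed for CD4 T-cell and NK-cell development and is known for its role in exhausted T cells. The peak (chr4:6970453-6970953) held 71.4, 45.0 and 47.7 CPM in T cells and 0, 2.79 and 4.59 CPM as the lowest, median and highest lymphoma (-4.26 ± 0.55, adjusted p = 1.73e-06). Of the 17 peaks of Tox, 13 were lower and 1, also intronic (chr4:6844013-6844513), was higher by 2.93 on the log2 scale. The gene sum was 370, 352 and 260 CPM in T cells and 60.0, 121 and 153 CPM in the lymphomas, with no overlap (-1.42 ± 0.20, adjusted p = 1.77e-05).

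The peaks that stood out on the other side had no count in any of the 3 T-cell libraries, so that only a lower bound of the fold can be given, against 3 counts over the whole T-cell group. An intronic peak of Rasgef1a, a guanine nucleotide exchange factor for Ras-like proteins (chr6:118018527-118019027), ran from 7.01 over 20.9 to 59.9 CPM in the lymphomas, at least 25.8-fold higher. An intronic peak of Slc35f3, a solute carrier (chr8:126257955-126258455), ran from 10.5 over 18.0 to 29.8 CPM, at least 24.9-fold higher. A promoter peak of Col22a1, a collagen gene (chr15:72034009-72034509), was at least 25.8-fold higher but uneven, from 0.531 over 15.3 to 83.1 CPM. The Rasgef1a and Slc35f3 peaks were thus open in every lymphoma, whereas Col22a1 was barely above 0 in mPTCL 3.

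The promoter peak shared by the homeobox gene Six3 and Gm28528 (chr17:85620610-85621110) ran from 2.96 over 10.6 to 37.4 CPM, at least 13.8-fold higher. A promoter peak of Taok3, a kinase of stress signalling (chr5:117126173-117126673), ran from 2.39 over 10.8 to 29.9 CPM, at least 16.5-fold higher, and had a median of 0 CPM in both NKT and NK cells. A promoter peak of Cit, the citron kinase of cell division (chr5:115844187-115844687), was at least 15.9-fold higher. Peaks of Erc2, Agtpbp1, BB123696, Wdr70 and Tmem181c-ps were at least 15.3-fold higher and had no T-cell count either. At an intronic peak of 4930471L23Rik and Gm4566, where T 2 had 1 count, the pooled ratio was 46.5, with a 95% counting interval from 8.28 to 1845. In NKT cells the median was 0 CPM at the BB123696 and Wdr70 peaks as well, and 5.6 CPM at the Slc35f3 peak.

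**Figure D2:**
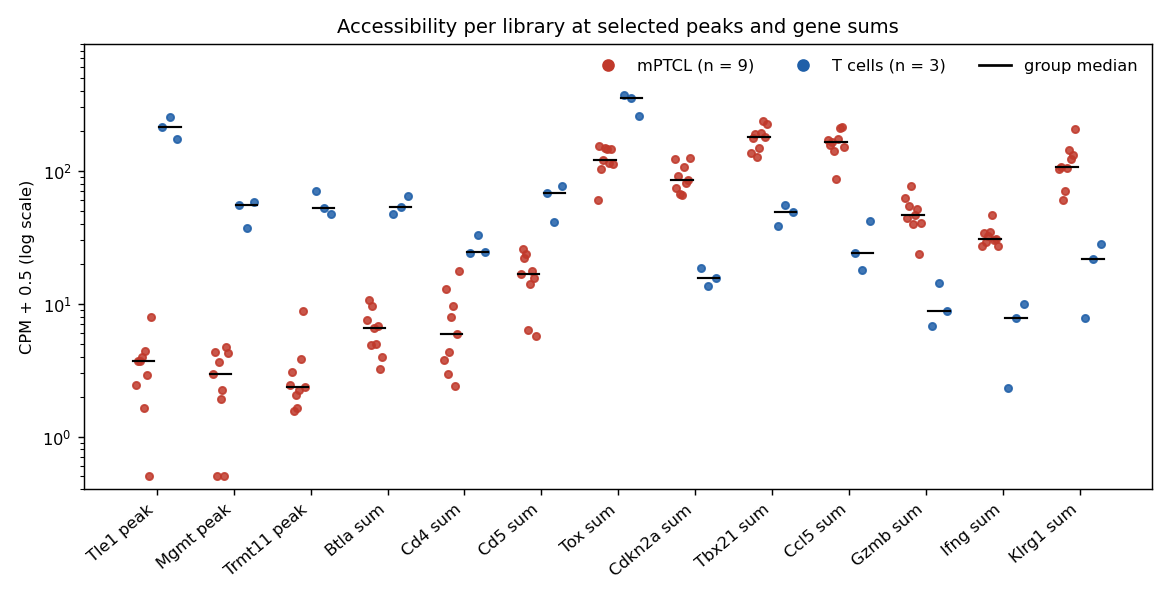
CPM plus 0.5, on a log axis, for 3 peaks and 10 gene sums in each lymphoma (n = 9) and T-cell library (n = 3), with group medians as bars. The 2 groups do not overlap at these 13 loci, which for the 3 peaks and Btla follows from how they were chosen. The other gene sums were picked from the named genes with earlier results of these data known, so this count is no result. Of all features tested, 22.8% of gene sums and 17.2% of peaks did not overlap. Tle1 runs from 0 to 7.47 CPM in the lymphomas and from 173 to 253 CPM in T cells.

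Among gene sums with at least 2 peaks, the largest gains were at genes with little background in T cells. Nos1ap, an adaptor of neuronal nitric oxide synthase, held 1.81, 2.90 and 4.89 CPM in T cells and 22.6, 53 and 95.3 CPM as the lowest, median and highest lymphoma, with all 4 peaks higher (log2 fold change 3.78 ± 0.51, adjusted p = 8.97e-06). Mmd2, a membrane protein gene, held 0, 1.45 and 1.51 CPM in T cells and 14.3, 21.9 and 33.7 CPM in the lymphomas (4.23 ± 0.65). Gm28528 had 3 counts in all over the T cells, and its pooled ratio was 30.7 (95% counting interval 10.4 to 149). Fat2, Higd1c, Efcab3, Krt90, Gm29711, Lmcd1 and Gm32051 had log2 fold changes from 3.62 to 3.99. The T-cell levels of these 10 genes were at most 4.89 CPM.

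The largest losses of gene sums, after Tle1 and C630043F03Rik, included 2 loci with known roles in lymphocytes. Btla encodes an inhibitory receptor of T and B cells. It held 47.1, 52.9 and 64.0 CPM in T cells and 2.72, 6.10 and 10.2 CPM in the lymphomas, and its promoter, 3' UTR and flanking peaks were all lower (log2 fold change -3.17 ± 0.29, adjusted p = 5.97e-08). Arpp21, which hosts a microRNA gene and is known from immature thymocytes, held 29.0, 47.8 and 36.1 CPM in T cells and 0.635, 4.31 and 6.82 CPM in the lymphomas (-3.17 ± 0.45). The gene 2610307P16Rik was lower at all 6 of its peaks, with 167, 161 and 130 CPM in T cells and 1.46, 10.3 and 31.4 CPM in the lymphomas (-3.92 ± 0.36). Gm47034, Gm29686, Gm13986, Slc25a5-ps and Tmtc2 had log2 fold changes from -4.33 to -3.20.

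Genes of the T-cell receptor complex and its signalling were unequally affected. Among its 30 genes there were 9 lower calls and 1 higher call, and the median log2 fold change was -0.27. Over all gene sums, 14.7% were lower and the median was 0.12. The list had its median level in class 9 of 10, in which 22.6% of gene sums were lower and the median was -0.13. Scaled within chromosomes, 6 were lower and 3 higher, and when T 1 was left out 5 were lower and none higher. Without any single lymphoma, 9 or 10 were lower and 1 or 2 higher. The summed level ran from 2252 to 3740 CPM in lymphomas and from 3110 to 3330 CPM in T cells, so the groups overlapped as a whole.

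Cd4, whose product binds MHC class II beside the receptor, is covered by 1 intronic peak (chr6:124884987-124885487), and its gene sum was 23.5, 32.6 and 24.1 CPM in T cells and 1.91, 5.44 and 17.2 CPM as the lowest, median and highest lymphoma (-2.08 ± 0.41, adjusted p = 0.000481). Cd5, a negative regulator of receptor signalling, held 67.0, 40.6 and 75.7 CPM against 5.17, 16.3 and 25.2 CPM, and its promoter and both intronic peaks were lower (-1.94 ± 0.42). The co-stimulator gene Icos held 26.3, 24.6 and 24.1 CPM against 2.72, 8.50 and 17.2 CPM (-1.49 ± 0.37). None of these 3 overlapped between groups, and all 3 were also lower when scaled within their chromosome. Of the 30 genes, 7 did not overlap, near the 22.8% of all gene sums.

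Cd247, the zeta chain of the receptor, held 99.6, 130 and 99.0 CPM in T cells and 40.9, 52.2 and 64.1 CPM in the lymphomas, with 5 of 8 peaks lower (-1.08 ± 0.19, adjusted p = 0.00016). Counted over its promoter peaks alone, the difference was -0.08, so the loss lay outside the promoter. The co-stimulator gene Cd28 held 109, 114 and 102 CPM against 8.89, 56.6 and 83.5 CPM (-1.12 ± 0.35, adjusted p = 0.017), but the call was lost within its chromosome (-0.82, adjusted p = 0.0953), without T 1 (adjusted p = 0.0579) and without T 2 (adjusted p = 0.0678). Cd6 (-1.34) and Themis (-1.33), which tune the strength of the receptor signal, and the signalling genes Prkcq (-0.56) and Rasgrp1 (-0.49) were also lower. Skap1, an adaptor of integrin activation, was the gene called higher (0.55 ± 0.18, adjusted p = 0.0202). It was at 0.04 within its chromosome and -0.25 over promoter peaks, and was not called without T 1 (adjusted p = 0.137) or T 2 (adjusted p = 0.0984). The CD8 genes were not called, with log2 fold changes of -0.01 for Cd8a and -0.83 for Cd8b1.

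Among genes of naive and recirculating T cells, 26.3% passed the test, against 30.9% of all gene sums. Of 19 genes, 5 were lower, none was higher and 14 were not called, with a median of -0.29. Without T 2 or without T 3, 3 were lower, and without mPTCL 4 1 was higher. The summed level ran from 1287 to 2245 CPM in lymphomas and from 2188 to 2281 CPM in T cells.

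Il7r, the receptor of the survival cytokine interleukin 7, held 55.2, 48.5 and 44.8 CPM in T cells and a median of 7.53 CPM in the lymphomas, with 2.39 CPM as the lowest. The highest, 62.6 CPM in mPTCL 8, lay above all T cells, so the groups overlapped (-1.89 ± 0.50, adjusted p = 0.00593). The call was lost over promoter peaks alone and with DESeq2. Il7r lies on chromosome 15, and its log2 fold change was -2.78 when scaled there. Il6ra, the receptor of interleukin 6, held 129, 118 and 122 CPM against 27.6, 42.8 and 77.1 CPM (-1.50 ± 0.28), and Nsg2 was lower by a log2 fold change of -1.19 ± 0.32. Over promoter peaks alone neither was called, with -0.26 for Il6ra (adjusted p = 0.686) and -0.97 for Nsg2 (adjusted p = 0.0896).

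The factors Tcf7 and Lef1, which keep T cells naive or memory-like, had log2 fold changes of -0.22 and -0.01 and were not called. Within its chromosome, Tcf7 was called lower (-0.75, adjusted p = 0.0092), and 5 of the 23 peaks of Lef1 were lower. Ccr7, the receptor that guides cells into lymph nodes, was lower by a log2 fold change of -0.66 (adjusted p = 0.0411). That call was lost without T 1 (adjusted p = 0.0854), T 2 (adjusted p = 0.136), T 3 (adjusted p = 0.118), mPTCL 4 (adjusted p = 0.0602), mPTCL 6 (adjusted p = 0.0593) and mPTCL 9 (adjusted p = 0.056), while within its chromosome it was -1.18 (adjusted p = 0.000375). Klf2, a factor of T-cell quiescence, was lower (-0.58) and was not called within its chromosome (-0.47, adjusted p = 0.064), without T 2 (adjusted p = 0.0953) or without T 3 (adjusted p = 0.166). The homing receptor gene S1pr1 (-0.52) was not called over all its peaks but was called lower over promoter peaks alone (-1.30, adjusted p = 0.015).

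Of 18 transcription factors of the T lineage, 15 were not called, among them Bcl11b (0.14, with 4 of 35 peaks higher and 2 lower), Gata3 (-0.18) and Runx1 (0.22). Tox and Ets1 were lower and Ikzf3 was higher. Ets1 held 312, 315 and 307 CPM in T cells and 98.1, 145 and 180 CPM in the lymphomas, with 10 of 20 peaks lower (-1.14 ± 0.18, adjusted p = 7.4e-05). Over promoter peaks alone it was at -0.34 and not called (adjusted p = 0.197). Ikzf3, the lymphoid factor Aiolos, held 158, 160 and 210 CPM against 281, 391 and 510 CPM, with 12 of 30 peaks higher and 1 lower (1.17 ± 0.22). Within its chromosome the Ikzf3 difference was 0.67, and over promoter peaks alone it was 0.39 (adjusted p = 0.284). The median of the list was -0.15, and 16.7% of it was called, against 30.9% of all gene sums.

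Helper and regulatory genes split by locus. Of 21 genes listed, 16 had peaks, 4 were higher, 5 lower and 7 not called, and Il21, Sh2d1a, Ascl2, Il17a and Tnfrsf4 had no peak. The median was -0.34, the mean -0.10 and the median within chromosomes 0.04. The share called was 56.2%, against 30.9% of all gene sums. Il13 and Il4 are neighbouring type 2 cytokine genes on chromosome 11. Il13 held 18.1, 15.9 and 16.9 CPM in T cells and 49.1, 76.1 and 118 CPM in the lymphomas, with 4 of 5 peaks higher (2.31 ± 0.29, adjusted p = 3.84e-06). Over promoter peaks alone it was at 1.15 and not called (adjusted p = 0.307). Il4 held 6.34, 10.1 and 6.02 CPM against 20.9, 31.5 and 45.9 CPM (2.04 ± 0.36). The 2 groups did not overlap at either gene, and both were also higher within chromosome 11 (1.83 and 1.51). Of the 16 genes, 4 did not overlap, beside 22.8% of all gene sums.

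Cxcr5, the receptor that leads cells into B-cell follicles, held 89.6, 96.3 and 86.6 CPM in T cells and 17.0, 39.2 and 66.5 CPM in the lymphomas (-1.22 ± 0.31), and Icos was lower as given above. Pou2af1, a co-activator of octamer-binding factors, was lower by a log2 fold change of -2.02 ± 0.63, with mPTCL 8 at 62.6 CPM above all T cells. Its call was lost without T 1 (adjusted p = 0.0547), T 2 (adjusted p = 0.063) or T 3 (adjusted p = 0.0568). Il2 was higher by 1.34 ± 0.43 and was not called without T 1 (adjusted p = 0.0883) or T 3 (adjusted p = 0.0853). The lower calls of this list fell to 2 without T 1, T 2 or T 3, and the higher calls to 2 without T 3.

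Genes of cytotoxic effector function were open in the lymphomas at chemokines and granzymes, but not throughout. Calls were higher for 12 of 20 genes, lower for 2 and absent for 6, and the median was 1.35 against 0.12 over all gene sums, of which 16.2% were higher. Within chromosomes 14 were higher and 1 lower. The summed level ran from 800 to 1478 CPM in the lymphomas and from 637 to 700 CPM in T cells, with no overlap.

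Ccl3, a chemokine of activated T and NK cells, held 3.62, 4.35 and 7.53 CPM in T cells and 24.1, 32.3 and 144 CPM as the lowest, median and highest lymphoma (2.95 ± 0.51). Ccl5, a chemokine of effector and memory T cells, held 23.5, 17.4 and 41.4 CPM against 85.6, 163 and 214 CPM. The promoter peak and 2 flanking peaks of Ccl5 were called higher, and the 5 others were not called. The neighbouring Ccl4 was higher by 2.32 ± 0.30.

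All 4 granzyme genes of the list were higher. Gzmb, the main apoptosis-inducing granzyme, held 6.34, 13.8 and 8.28 CPM in T cells and 23.1, 46.1 and 76.1 CPM in the lymphomas. Gzma held 12.7, 7.97 and 19.6 CPM against 30.1, 58.0 and 93.2 CPM, and its log2 fold change was 2.13 ± 0.39 over all chromosomes and 2.71 within chromosome 13. Gzmm (1.69) and Gzmk (1.52) were also higher, as were Fgl2 (1.65), Xcl1 (1.84), Nkg7 (1.18) and Ctsw (0.82). At the Gzmb promoter shown above (peak chr14:56262079-56262579), the T cells had 6.39, 6.92 and 6.54 CPM and the lymphomas 13.9, 29.5 and 49.8 CPM (2.23 ± 0.43).

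Ifng, the interferon of type 1 immunity, is covered by 1 promoter peak (chr10:118440707-118441207). Its gene sum was 1.81, 7.24 and 9.41 CPM in T cells and 26.5, 29.9 and 45.9 CPM in the lymphomas, with no overlap (2.25 ± 0.32, adjusted p = 1.55e-05). Prf1, the pore-forming protein that granzymes depend on, differed by -0.13 and was not called, with 87.8, 57.9 and 58.7 CPM in T cells and 38.8, 63.2 and 78.9 CPM in the lymphomas. Cst7, an inhibitor of granule proteases, held 79.7, 83.3 and 71.5 CPM against 20.2, 31.5 and 59.9 CPM (-1.28 ± 0.25), and Srgn, the proteoglycan core of granules, was lower (-0.63). The Srgn call was lost without T 2 (adjusted p = 0.132), without T 3 (adjusted p = 0.0653) and within its chromosome (adjusted p = 0.231).

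Of 16 transcription factors of effector and NK cells, 4 were higher, 2 lower and 10 not called (median 0.34), and within chromosomes 8 were higher and 1 lower. The share called was 37.5%, against 30.9% of all gene sums. Tbx21 held 38.0, 55.0 and 48.6 CPM in T cells and 127, 180 and 238 CPM in the lymphomas, with 7 of 14 peaks higher (1.91 ± 0.22, within its chromosome 1.41). Runx3, which silences Cd4 in cytotoxic T cells, held 173, 175 and 167 CPM against 226, 316 and 473 CPM (0.94 ± 0.21). Neither gene overlapped between groups, as was so for 5 of the 16 genes and 22.8% of all gene sums. Bhlhe40 (0.90) and the residency factor Zfp683 (1.13 ± 0.35) were higher as well, the latter not without T 1 (adjusted p = 0.0947) or T 2 (adjusted p = 0.0596).

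Klf6, a Krüppel-like factor, was lower at 5 of 6 peaks, with 322, 356 and 278 CPM in T cells and 72.3, 123 and 164 CPM in the lymphomas (-1.41 ± 0.21). Irf4, a factor of activated lymphocytes, was lower (-0.99 ± 0.24), and stood at -0.39 (adjusted p = 0.177) within chromosome 13. Eomes, the relative of T-bet, differed by 0.78 (adjusted p = 0.0897) and was called within its chromosome (1.05, adjusted p = 0.0156) and without mPTCL 9 (adjusted p = 0.049). Zeb2 (0.44), Id2 (0.26) and Prdm1 (-0.24) were not called.

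Of 27 NK receptor genes listed, 21 had peaks, 11 were higher, none was lower and 10 were not called, with a median of 0.96 against 0.12 over all gene sums. The share called was 52.4%, against 30.9% of all gene sums. The list had its median level in class 4 of 10, in which 20% of gene sums were higher and the median was 0.26. Among those not called were Fcgr3 (-0.76) and Cd226 (-0.55). The higher calls fell to 5 without T 1, to 5 without T 3 and to 3 in the smaller table. With cyclic loess 7 were higher and 1 lower. Klrc2, Klri1, Klri2, Klra3, Klra4 and Klra8 had no peak. Many of these genes have near-identical neighbours in the NK gene complex of chromosome 6, so their counts may be shared. The summed level ran from 716 to 1054 CPM in the lymphomas and from 480 to 567 CPM in T cells.

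Klrg1, an inhibitory receptor of terminally differentiated effector cells, held 7.24, 21.0 and 27.5 CPM in T cells and 59.5, 106 and 206 CPM in the lymphomas, with 5 of 9 peaks higher (2.55 ± 0.37). Slamf7, an activating receptor, held 29.9, 45.6 and 55.7 CPM against 80.3, 125 and 144 CPM. Ncr1, which encodes the activating receptor NKp46, held 1.81, 0 and 5.27 CPM in T cells and a median of 17.7 CPM in the lymphomas, where mPTCL 8 had no count (2.52 ± 0.72). The Ncr1 call was lost without T 2 (adjusted p = 0.0619), and that of Klrb1b (2.53 ± 0.69) without T 3 (adjusted p = 0.0603). Klrk1, which encodes NKG2D, was not called in its sum (0.20), where its promoter peak (1.93) and a flanking peak (1.38) were higher and another flanking peak was lower (-1.21). Over promoter peaks alone it was called higher (2.31, adjusted p = 0.00558).

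Of 16 genes that carry the signals of these receptors, 8 were higher and none lower, with a median of 0.99. The share called was 50%, against 30.9% of all gene sums. Higher calls were 7 without T 1, T 2 or T 3 and 2 in the smaller table. Tyrobp, the adaptor DAP12, held 5.43, 7.97 and 6.40 CPM in T cells and 16.3, 23.6 and 39.7 CPM in the lymphomas (2.08 ± 0.35). Sh2d1b1, the adaptor EAT-2, held 0, 1.45 and 0.753 CPM against 2.72, 6.89 and 14.1 CPM (3.18 ± 0.86). Lat2 held 12.7, 14.5 and 24.5 CPM against 32.7, 65.4 and 131 CPM (2.01 ± 0.39). None of these 3 overlapped between the groups, as was so for 7 of the 16 genes and 22.8% of all gene sums. Hcst, the adaptor DAP10, was at -0.10 and Syk at 1.12, and neither was called.

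Tyrobp, Fcer1g, Lyn and Syk are also used by myeloid cells or B cells, and markers of such cells moved with these groups. Among B-cell markers, 4 of the 5 with peaks were higher, with a summed level of 121 to 235 CPM in the lymphomas and 64.3 to 84.7 CPM in T cells. Cd22, Cd79b and Blk were among these 4. In the normal NK libraries the summed level of B-cell markers was 181, 121 and 131 CPM, and in NKT libraries 44.3, 55.6 and 55.2 CPM. No B-cell marker was called without T 1, 1 was called without T 2, mPTCL 2 or mPTCL 4, and 2 without T 3, mPTCL 5 or mPTCL 6. Among myeloid and Kupffer-cell markers, 3 of 6 were higher (142 to 197 CPM against 73.9 to 77.9 CPM). These were Cd68 (2.32), Itgax (2.17), the CD11c gene, which activated cytotoxic T cells also use, and Spi1. Spi1 was not called without T 1 (adjusted p = 0.0765), T 2 (adjusted p = 0.0564) or T 3 (adjusted p = 0.0568). The summed level of myeloid markers was 177, 170 and 146 CPM in NK libraries and 67.4, 72.6 and 82.1 CPM in NKT libraries. At both lists the normal NK cells thus lay at the level of the lymphomas. Among hepatocyte markers 1 of 2 was higher (29.3 to 78.6 CPM against 11.8 to 20.7 CPM), among endothelial and stromal markers 2 of 6 (144 to 244 CPM against 142 to 182 CPM) and among erythroid and megakaryocyte markers 1 of 6 (168 to 208 CPM against 77.9 to 119 CPM). Col1a1 was among the stromal markers called higher, but not within its chromosome (0.57, adjusted p = 0.106). Over all gene sums, 16.2% were higher. In level classes 3 and 4, where the myeloid and B-cell lists had their median level, 21.1% and 20% were higher.

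Many defining markers of those cells have no peak at all in the table, among them Cd79a and Ms4a1 of B cells, Lyz2, Csf1r, Adgre1, Vsig4 and Marco of macrophages, Alb, Apoa1, Ttr, Serpina1a, Cyp2e1 and Fga of hepatocytes, Kdr, Lyve1, Col3a1 and Dcn of vessels and stroma, and Gata1, Hbb-bs and Pf4 of erythroid cells and platelets. Because all tested peaks lie on autosomes, a missing peak says nothing of a gene on a sex chromosome. Among the markers with peaks, Cd22 was at 0 in T 1, Hba-a1 in T 1 and Tek in 1 lymphoma. The part of other cell types in the cytotoxic and NK-type differences was not tested.

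Genes of chronic stimulation and exhaustion were called in both directions. Among 21 genes there were 5 higher and 4 lower calls, so that 42.9% were called against 30.9% of all gene sums, and the median was 0.12 in both. Without T 2 or T 3 3 were higher and 3 lower. Cd38, an ectoenzyme of activated cells, held 7.24, 10.1 and 17.3 CPM in T cells and 27.6, 59.2 and 80.5 CPM in the lymphomas (2.16 ± 0.38). Il10 (1.95 ± 0.48) was higher with overlap, and Havcr2, the TIM-3 gene, by 1.58 ± 0.43, but not within its chromosome (1.10, adjusted p = 0.0676) or without T 3 (adjusted p = 0.0511). Nr4a1 (0.76) and Tox2 (0.69) were higher and Egr2 (-0.84), Tox, Irf4 and Ctla4 lower. The Ctla4 call (-1, adjusted p = 0.0484) was lost without any single T-cell library and without each of mPTCL 1, 2, 5, 6, 8 and 9, where adjusted p lay between 0.0508 and 0.147. Pdcd1, the PD-1 gene, was at -0.36 and not called, with 1 of 6 peaks higher and 2 lower. Lag3 (-0.06) and Tigit (0.24) were not called.

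Among 17 genes of homing and tissue residency with peaks (Cxcr3 had none), 6 were higher, none lower and 11 not called, with a median of 0.10. The share called, 35.3%, was near the 30.9% of all gene sums. Without mPTCL 1, 2, 4 or 8, 1 gene was lower. Itgae, the CD103 integrin chain that binds epithelia, held 21.7, 21.7 and 34.2 CPM in T cells and 49.9, 84.5 and 147 CPM in the lymphomas (1.76 ± 0.27). The groups did not overlap at this gene, as was so for 5 of the 17 genes and 22.8% of all gene sums. Ccr2 (1.48 ± 0.44) was not called without T 2 (adjusted p = 0.061), and S1pr5 (1.03), Itga1 (0.99) and Itgb7 (0.69) were higher. Cxcr6, a receptor of liver-resident lymphocytes, was at -0.00 and not called, with 18.1, 17.4 and 15.8 CPM in T cells and 1.06, 17.2 and 35.5 CPM in the lymphomas.

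Among 29 cytokine receptor and Jak-Stat genes, calls were higher for 6 and lower for 3 and absent for 20, at a median of 0.00. The share called, 31%, was near the 30.9% of all gene sums. Leaving out T 1, T 2 or T 3 left 3 higher in each case, and 2, 1 and 1 lower. Il2rb, the chain shared by the interleukin 2 and 15 receptors, held 78.8, 98.5 and 82.4 CPM in T cells and 119, 207 and 278 CPM in the lymphomas (1.21 ± 0.26). It lies on chromosome 15, and within that chromosome the difference was 0.37 (adjusted p = 0.284). The interleukin 18 receptor genes Il18rap (1.32 ± 0.34) and Il18r1 (0.99) and the interleukin 12 receptor gene Il12rb1 (0.80) were higher. Socs2 (1.02) was higher but not without T 1 (adjusted p = 0.062), T 2 (adjusted p = 0.0525) or T 3 (adjusted p = 0.059). Tgfbr2 (-0.87) was lower but not without T 1 (adjusted p = 0.0515) or over promoter peaks alone (-0.21, adjusted p = 0.619). Il2ra (-0.72) and Jak2 (-0.55) were lower, but neither within its chromosome (adjusted p = 0.127 and 0.154). Il2ra was also not called without T 1 (adjusted p = 0.0567), T 2 (adjusted p = 0.0955) or T 3 (adjusted p = 0.0766), nor Jak2 without T 2 (adjusted p = 0.0771) or T 3 (adjusted p = 0.132).

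The targets of p53 that were called were mostly lower in the p53KO lymphomas. Of 22 genes, 7 were lower, 1 higher and 14 not called, with a median of -0.50. Of all gene sums, 14.7% were lower and 16.2% higher. The list had its median level in class 8 of 10, in which 22.9% of gene sums were lower and the median was -0.12. The summed level ran from 1102 to 1457 CPM in the lymphomas and from 1540 to 1675 CPM in T cells, with no overlap. The lower calls fell to 4, 3 and 4 without T 1, T 2 and T 3, and to 5 within chromosomes. Gadd45a, a stress-response gene, held 181, 188 and 160 CPM in T cells and 68.5, 77.9 and 152 CPM in the lymphomas (-1.03 ± 0.20, adjusted p = 0.000385). Xpc, of nucleotide excision repair, held 76.0, 86.9 and 86.9 CPM against 32.7, 53.3 and 58.1 CPM (-0.71 ± 0.19). Ccng1 (-0.61) and Aen (-0.51) were also lower. The groups did not overlap at Gadd45a, Xpc and Aen, which are 3 of the 22 genes, and at 22.8% of all gene sums.

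Plk2 (-1.72 ± 0.49), Phlda3 (-1.36 ± 0.47) and Ei24 (-1.04 ± 0.39) were lower with overlap, and none of these 3 was called within its chromosome. Plk2 was not called without T 2 (adjusted p = 0.0674), nor Phlda3 without T 1 (adjusted p = 0.314) or T 2 (adjusted p = 0.0643). Ei24 was not called without T 1, T 2, T 3, mPTCL 1, mPTCL 4, mPTCL 6 or mPTCL 9, where adjusted p lay between 0.0508 and 0.181. Cdkn1a, the cell-cycle inhibitor that is the best-known p53 target, was higher, with 10.9, 5.07 and 17.3 CPM in T cells and 10.9, 21.8 and 36.2 CPM in the lymphomas (1.05 ± 0.38, adjusted p = 0.0389). That call was lost within its chromosome (0.76, adjusted p = 0.11), without T 1 (adjusted p = 0.114), T 2 (adjusted p = 0.225), mPTCL 5 (adjusted p = 0.0714), mPTCL 6 (adjusted p = 0.0523) and mPTCL 9 (adjusted p = 0.0548). Mdm2, the ligase that degrades p53, was at -0.04 and not called.

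Of 33 genes of cell cycle and growth, 4 were higher, 9 lower and 20 not called, with a median of -0.14, so that 39.4% were called against 30.9% of all gene sums. The lower calls were 4 within chromosomes and 5 without T 1, T 2 or T 3, and the higher calls were 2 without T 1. The locus that stood out was Cdkn2a, which encodes the Cdk4 inhibitor Ink4a from the downstream start and the Mdm2 inhibitor Arf from the upstream start. Its gene sum was 18.1, 13 and 15.1 CPM in T cells and 64.7, 84.4 and 124 CPM as the lowest, median and highest lymphoma, so that the lowest lymphoma lay above the T cells by more than their range (2.56 ± 0.29, adjusted p = 9.5e-07, within its chromosome 2.45). Normal NKT cells ran from 25.1 to 28.5 CPM and NK cells from 20.5 to 49.6 CPM.

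The gain at Cdkn2a was largest at the upstream start. There the peak (chr4:89294463-89294963), which covers the CpG-rich window shown above, held 3.20, 5.19 and 7.01 CPM in T cells and 26.2, 43.2 and 82.2 CPM in the lymphomas (3.16 ± 0.43). At the downstream start (chr4:89281975-89282475) the T cells had 10.7, 3.46 and 2.34 CPM and the lymphomas 3.44, 22.3 and 46.1 CPM, with overlap (2.27 ± 0.61). A peak just upstream of the first (chr4:89295177-89295677) was higher by 2.31 ± 0.55, and the intronic peak between the starts was not called (0.33). Cdkn2b, the neighbouring inhibitor gene, was at 0.70 and not called.

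Among the growth genes, Myc held 85.1, 90.5 and 96.4 CPM in T cells and 108, 160 and 272 CPM in the lymphomas, all above the T cells (0.92 ± 0.22). Myc lies on chromosome 15, and within that chromosome the difference was 0.09 (adjusted p = 0.786). Mycn (1.35 ± 0.39) and Ccnd1 (0.92 ± 0.29) were higher, though Mycn not without T 1 (adjusted p = 0.0823) and Ccnd1 not without T 1 (adjusted p = 0.12) or T 2 (adjusted p = 0.0729). Mcm3, of the replicative helicase, held 89.6, 112 and 91.5 CPM in T cells and 27.2, 44.0 and 56.1 CPM in the lymphomas (-1.15 ± 0.20). The inhibitor gene Cdkn1b (-0.97 ± 0.18) and the cyclin gene Ccne1 (-0.95 ± 0.19) were lower without overlap, but neither over promoter peaks alone (adjusted p = 0.0521 and 0.0687). Mcm2 (-0.56) and Pcna (-0.63) were lower, and Mcm5 (-0.45) and Mcm6 (-0.10) were not called. Mki67, Top2a and Cdk1 were not called.

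Genes of the Bcl2 family of apoptosis regulators showed few calls. Of 12 with peaks (Bcl2a1b, Bcl2l2 and Bok had none), Bik was higher (1.10 ± 0.38) and none was lower, with a median of -0.08. The share called was 8.33%, against 30.9% of all gene sums. The Bik call was lost within chromosome 15 (0.25, adjusted p = 0.618), without mPTCL 5 (adjusted p = 0.055) and without each T-cell library (adjusted p between 0.0806 and 0.0984), while leaving out another lymphoma gave 1 to 3 genes higher. Of 28 genes that are recurrently mutated in human peripheral T-cell lymphoma, 2 were higher (Cdkn2a and Kmt2d), 5 lower (among them Irf4, Idh2, Cd28 and Tnfaip3) and 21 not called, with a median of -0.16. The share called, 25%, lay below the 30.9% of all gene sums. Leaving out T 1, T 2 or T 3 left 1, 2 and 3 lower, and 2, 1 and 1 higher. Tet2 (-0.42), Dnmt3a (-0.49) and Rhoa (-0.08), known from human follicular-helper-type lymphoma, were not called. Idh2 held 40.7, 32.6 and 33.1 CPM in T cells and 13, 18.9 and 21.2 CPM in the lymphomas (-1.01 ± 0.28), and was not called without T 1 (adjusted p = 0.0527). Kmt2d lies on chromosome 15 and went from 0.83 to -0.04 when scaled there, and was not called without T 2 (adjusted p = 0.128) or T 3 (adjusted p = 0.0945).

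**Figure D3:**
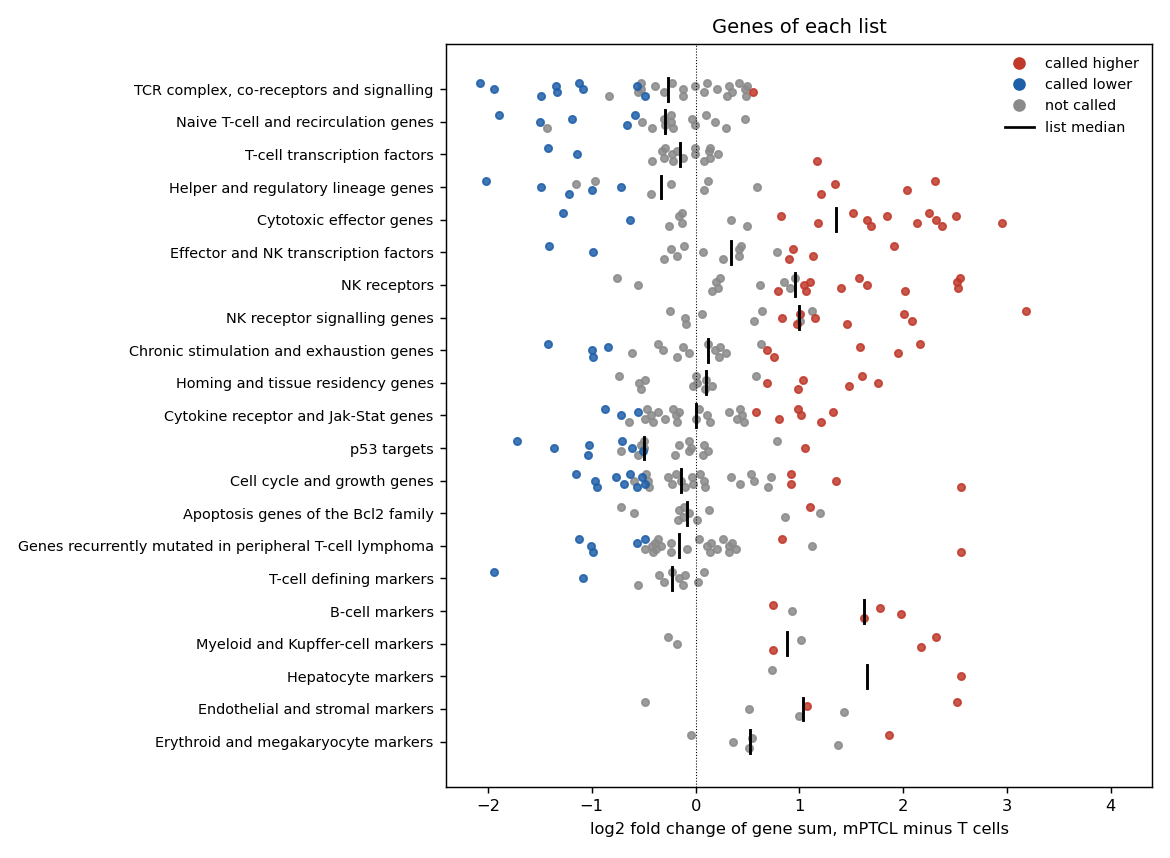
Log2 fold change of every measured gene of 15 functional and 6 marker lists, coloured by its call, with list medians as bars. Cytotoxic genes (median 1.35), NK signalling genes (0.99) and NK receptors (0.96) lie to the right of the median of all gene sums (0.12), and p53 targets (-0.50) to its left.

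Whole chromosomes took different parts of the counts in lymphomas and T cells. Chromosome 15 held 7.96% ± 1.36 (SD, n = 9) of the counts in lymphomas and 4.84% ± 0.136 (SD, n = 3) in T cells. The lymphomas ran from 6.89% to 8.61% except mPTCL 2 at 11.3%, and the T cells from 4.69% to 4.96%. Chromosome 11 held 11.2% ± 1.27 against 8.13% ± 0.646 and chromosome 5 9.49% ± 1.59 against 7.01% ± 0.277. On the other side, chromosome 13 held 2.67% ± 0.456 against 4.06% ± 0.162, with lymphomas from 1.97% to 3.07% and T cells from 3.89% to 4.22%. Chromosome 16 held 2.40% against 3.43%, chromosome 10 4.33% against 5.76%, chromosome 2 6.03% against 7.26% and chromosome 9 4.18% against 5.09%. For these 8 chromosomes all 9 lymphomas lay on the same side of all T cells, with exact permutation p = 0.00909, the smallest possible, and adjusted p = 0.0216 over 19 chromosomes.

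Chromosome 18 held 2.1% against 2.7% (exact p = 0.0182, adjusted p = 0.0384), and was not called without mPTCL 1, 2, 3 or 7. Over promoter peaks alone and in the smaller table, chromosomes 9 and 18 were not called. Chromosomes 1, 6, 7 and 19 had adjusted p between 0.0518 and 0.0664, and chromosome 17 held 6.51% against 5.54% (adjusted p = 0.148). With 2 T-cell libraries in place of 3, none of the 9 called chromosomes kept its call. The smallest possible exact p is then larger and passes the adjustment only if most chromosomes reach it, so this loss largely follows from the test. The lymphomas differed most from each other on chromosome 4, with an SD of 0.29 on the log2 scale, where mPTCL 6 had 9.69% and mPTCL 3 5.30% of its counts. Between T-cell libraries the SD of a chromosome's log2 share was 0.01 to 0.11.

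**Figure D4:**
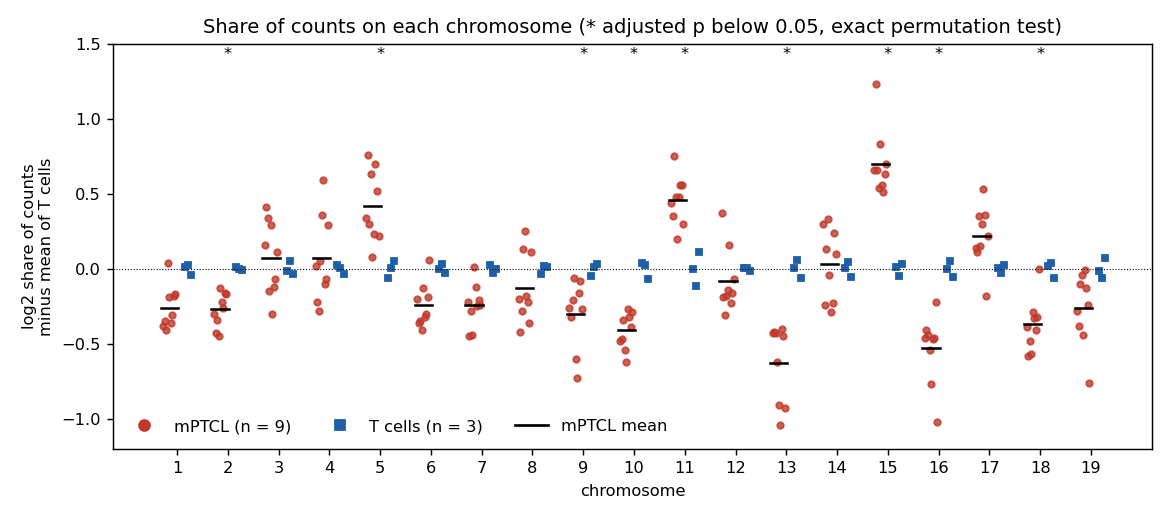
Share of counts on each autosome, as log2 difference from the T-cell mean, for each lymphoma (n = 9) and T-cell library (n = 3). An asterisk marks an adjusted p below 0.05. All lymphomas lie above the T cells on chromosomes 5, 11 and 15 and below them on 2, 9, 10, 13 and 16.

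Scaling each chromosome by its own TMM factors centres the fold changes of that chromosome, so that more even numbers of higher and lower calls follow from the method. On chromosome 15, 17% of peaks were higher and 2.06% lower over all chromosomes, against 4.36% and 7.92% within it. On chromosome 13, 3.78% were higher and 28.2% lower, against 10.2% and 10.5% within it. Chromosomes 11 and 5 went from 13.2% and 11.2% higher to 6.76% and 5.15%, and chromosomes 16 and 10 from 25.7% and 23.1% lower to 10.3% and 10.7%. In all, 10293 peaks (16.8%) and 5162 gene sums (25.4%) were called within chromosomes.

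The peak calls shared by both scalings, in the same direction, were 8153, which is 67.6% of the calls over all chromosomes and 79.2% of those within them. For gene sums the shared calls were 3922, or 62.4% and 76%. No peak or gene was called in opposite directions. The median shift of a gene's log2 fold change was 0.259. Among the genes named above, Myc, Il2rb, Bik, Kmt2d and Skap1 lost their higher call within chromosomes 15 and 11, and Irf4, Plk2 and Srgn their lower call within chromosomes 13 and 10. Tcf7, Eomes, Zeb2 (0.67, adjusted p = 0.0118) and Nr4a2 (0.85, adjusted p = 0.0143) gained one. Cdkn2a, Tbx21, Ccl5, Gzmb, Ifng, Klrg1, Cd4, Cd5, Btla, Tle1 and Tox kept theirs.

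Counting promoter peaks alone, 19 of the 116 named gene sums lost their call, 5 gained one and 1 changed sign. Those that lost it were Ccne1, Ccr7, Cd247, Cd28, Cdkn1b, Ei24, Ets1, Ikzf3, Il13, Il2ra, Il6ra, Il7r, Irf4, Jak2, Klrb1b, Nsg2, Phlda3, Tgfbr2 and Zfp683. Eomes, Klrk1, Nr4a2, S1pr1 and Zeb2 gained one. In the smaller table, a call was lost by 19, among them Ccnd1, Ccr7, Cd28, Ctla4, Ei24, Idh2, Ikzf3, Il18rap, Il2, Il2ra, Jak2, Klf2, Phlda3, Srgn, Tgfbr2 and Zfp683.

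**Figure D5:**
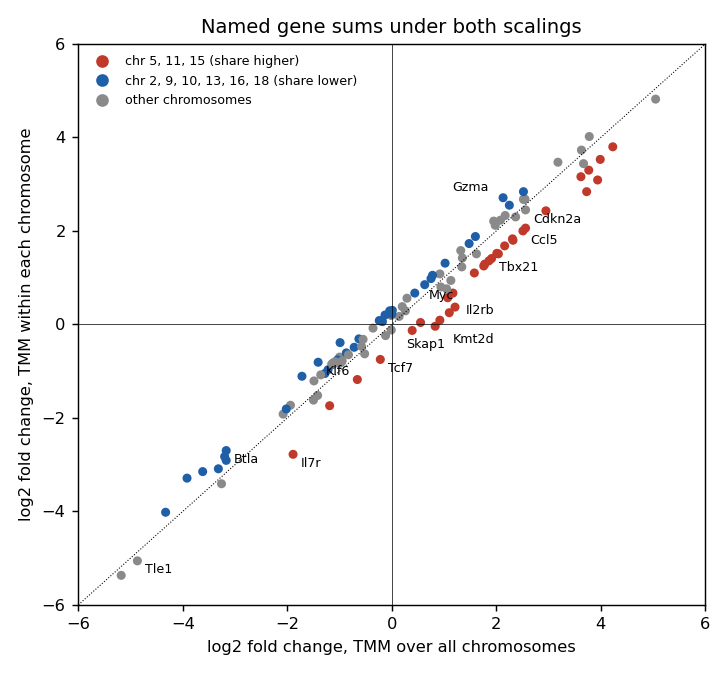
Log2 fold change of the named gene sums with TMM over all chromosomes (x axis) and within each chromosome (y axis), coloured by the direction of the chromosome's share of counts. Genes on chromosomes 5, 11 and 15 lie below the diagonal, such as Myc (0.92 against 0.09), and genes on chromosomes whose share was lower lie above it, such as Gzma (2.13 against 2.71).

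Some loci held peaks that moved in opposite directions, which their gene sums hide. Of 12406 genes with at least 2 tested peaks, 367 (2.96%) had called peaks in both directions and 38 had 2 or more of each. Chd7, a chromatin remodeller on chromosome 4, had 3 intronic peaks higher and 4 lower out of 23, and its gene sum was at 0.13. Within its introns, the peak chr4:8783105-8783605 held 12.8, 21.6 and 16.4 CPM in T cells and 0, 2.58 and 6.54 CPM in the lymphomas (-2.72 ± 0.55). The peak chr4:8803902-8804402 held 0, 1.73 and 7.94 CPM in T cells and 2.79, 23.5 and 38.6 CPM in the lymphomas (2.62 ± 0.60). The groups overlapped at the second peak and not at the first.

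Sipa1l1, a Rap GTPase activator on chromosome 12, had 4 peaks higher and 3 lower out of 23. Its intronic peak chr12:82214902-82215402 held 2.13, 3.46 and 5.14 CPM in T cells and 21.5, 30.8 and 75.0 CPM in the lymphomas (3.28 ± 0.46), with no overlap. The intronic peak chr12:82187239-82187739 held 17.0, 9.52 and 15 CPM in T cells and 0, 1.15 and 2.78 CPM in the lymphomas (-3.17 ± 0.66). The ubiquitin ligase gene Nedd4l on chromosome 18 had 3 peaks higher and 4 lower out of 21, and 2 of the lower peaks were not called within that chromosome (adjusted p = 0.19 and 0.0946). Gm20388 had 36 higher and 8 lower out of 235 peaks, and Fgfr2 6 and 6 out of 47, but of the Fgfr2 peaks only 1 lies in the RefSeq span of the gene, so these symbols stand for wide regions rather than for the genes.

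Short motifs were counted in promoter windows of 300 bases that overlap a promoter peak by at least 150 bases. There were 8680 such windows, 280 at peaks called higher and 2269 at peaks called lower, with a median of 63.7% and 62.3% G or C. Both strands were searched, and the letters AGGTGTGA and CAGGTG overlap in part. The AP-1 letters TGANTCA stood in 7.14% of the higher windows, 3.57% of the lower windows and 4.65% of all windows, and in 7.81% of all 32851 RefSeq promoters. The E-box CAGCTG stood in 19.3%, 14.1% and 14.4%, and in 16.3% of all RefSeq promoters, whereas the E-box CAGGTG stood in 17.5%, 17.8% and 17.6%.

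The T-box letters AGGTGTGA stood in 1.43% of higher, 0.573% of lower and 0.783% of all windows, and the RUNX letters TGTGGTTT in 2.14%, 1.1% and 1.3%. The ETS letters CAGGAAGT stood in 2.86%, 3.31% and 3.63%, the KLF letters GGGTGTGG in 4.64%, 3.39% and 3.95% and the CTCF letters AGGGGGCGC in 2.5%, 1.98% and 2.91%. The NF-kappaB letters GGGANTTTC stood in 2.14%, 0.881% and 0.864% and the NR4A letters AAAGGTCA in 1.43%, 0.397% and 0.703%. The TCF/LEF letters CTTTGATG stood in 0.714%, 0.661% and 0.541%, the NFAT letters TGGAAAAA in 0.714%, 1.01% and 1.13% and the IRF letters GAAANTGAA in 0.714%, 1.54% and 1.59%. The GATA letters AGATAAGA stood in 0%, 0.397% and 0.472%, and a pair of p53 core motifs in 0%, 0.176% and 0.161%. With 280 higher windows, most of these shares rest on 20 windows or fewer. They describe letters in promoters and say nothing of which factors were bound, and enhancers, where many of the called peaks lie, were not searched.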

How the data were processed

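ATAC-seq read counts per peak were taken from the larger of the deposited count tables, which the authors made on mm10 with MACS2 2.1.2, bedtools and edgeR 3.24.3, per the submitters' processing notes. All columns matched a library, and the counts are raw whole numbers per 500-base peak. The aligner is not given in the sources used here, nor whether starts count from 0 or 1. Peak classes and gene symbols are the deposited ones, and 98 peaks without a symbol were left out of gene sums.

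Tests used edgeR 4.0.16 in R 4.3.3 (quasi-likelihood, TMM, group-wise filter on low counts), fitted over all 18 libraries in 4 groups, with Benjamini-Hochberg adjustment over all features and a threshold of 0.05. The biological coefficient of variation was 0.4308 for peaks and 0.2973 for genes, with 14 residual degrees of freedom. CPM values use TMM library sizes, separately for peaks and for gene sums; log2 CPM adds a prior count of 2. Counting intervals are exact at 95% and cover counting error only. Chromosome and class shares were compared with exact two-sided permutation tests. Alternatives used limma 3.58.1, DESeq2 1.42.0, other scalings, filters, thinning to 670358 counts, the smaller table, promoter peaks only, and each of 12 libraries left out.

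The libraries compared, and the 15 functional and 6 marker lists, were chosen with earlier results of these data known. Named were the 12 peaks with the largest fold change in each direction, at most 1 per symbol, among those also called within chromosomes, with a mean of at least 20 counts and no overlap between groups. By the same conditions, 10 genes with at least 2 peaks were named in each direction. Up to 3 called genes per list and direction were named by fold change alone. Also named were 43 genes whatever their call, and 5 loci with peaks in both directions. Other list members and the printed sequences were chosen after their values were seen. Some genes of the lists are not reported here by name, though they count in the totals. The fitting script was tested on simulated counts. No genome of this build was used here, so motifs and sequences cover RefSeq promoter windows on mm10 and not whole peaks, as had been planned.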

Additional observations from a re-analysis of the deposited data

Results flagged for a closer look

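In 16 of 166 sets of 9 lymphomas, 1 library stood apart from the other 8, with a gap to its nearest neighbour larger than 0.493 of the whole range. Chance alone would flag about 1 set in 20 if the sets were independent and normally spread. These sets share libraries, some share peaks and some hold values of no count, so that rate need not hold here. The library mPTCL 8, which is the shallowest, accounts for 8 of the 16 flagged sets, and the part of its depth in them was not tested.

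It was lowest at the gene sums of Tle1, C630043F03Rik, Gm47034 and Ncr1, each at -0.54 log2 CPM, the value of no count. The nearest other lymphomas were at 2.04, 1.90 and 1.10 for Tle1, C630043F03Rik and Gm47034. The library was highest at Ccl3, the chemokine gene, with 7.18 log2 CPM against 5.23 in the next lymphoma. It was also highest at the Trmt11 peak (3.19), the Gm15200 peak (3.58) and the Pcbp3 peak (5.89), all on chromosome 10 and all lost in most lymphomas.

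Of the other lymphomas, mPTCL 1 was lowest at Tox (5.92 log2 CPM), mPTCL 5 at Ccl5 (6.43), mPTCL 3 at Il18rap (4.67) and mPTCL 6 at S1pr1 (4.07). The library mPTCL 6 was highest at Ifng (5.54). For the share of counts per chromosome, mPTCL 4 was highest on chromosome 1 (6.48% against 5.62% in the next), mPTCL 2 on chromosome 15 (11.3% against 8.61%) and mPTCL 9 on chromosome 18 (2.7% against 2.22%).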

How the results depend on the processing

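The counts of calls moved by more than 1.5 times in these settings, and the cause was not tested beyond what each setting leaves out. Peaks higher in the lymphomas went from 5061 to 7863 with RLE factors, 3153 with cyclic loess in limma, 12777 with DESeq2, 3273 after thinning every library to the same total and 2263 in the smaller table, and ran from 2597 to 6564 when 1 library was left out. Peaks lower went from 6999 to 4518 with RLE, 4119 with cyclic loess, 4296 with a mean of at least 20 counts, which leaves fewer peaks to test, 3418 after thinning and 2534 in the smaller table, and ran from 3386 to 7167 with 1 library left out. Gene sums higher went from 3297 to 1733 in the smaller table and 2145 over promoter peaks only, and ran from 1865 to 3390 with 1 library left out. Gene sums lower went from 2986 to 1542 and 1962 in the same settings, and ran from 1830 to 3267 with 1 library left out.

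Single results that changed sign were Skap1 over promoter peaks only (-0.25, adjusted p = 0.63), Kmt2d within its chromosome (-0.04, adjusted p = 0.914) and the intronic share in the smaller table (-0.189 percentage points, adjusted p = 0.864). None of the 24 named peaks changed its call in the 514 comparisons made. The peaks were chosen by both calls, fold change, mean count and lack of overlap, so this largely follows from the choice. Over the alternatives for the 116 named gene sums, 2419 comparisons kept their call or its absence, 180 lost a call and 16 gained one, with 21, 23 and 17 losses without T 1, T 2 and T 3, 19 over promoter peaks only, 19 in the smaller table, 18 within chromosomes, 14 with cyclic loess and at most 9 in any other setting. Without any 1 of the 3 T-cell libraries no chromosome share passed. The smallest exact p of 9 libraries against 2 passes the adjustment over 19 chromosomes only if most chromosomes reach it. No paired analysis was possible because the lymphomas carry no replicate number shared with the T cells. The limits are the 3 T-cell libraries, the unequal depth and the lack of a DNA control.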
